A study of Mus musculus with 72 samples.

Results

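The cerebral cortex of newborn Ts1Cje mice was compared with that of disomic littermates in 6 arrays of the 72 in the series, chosen by the age (P1, postnatal day 1) and region that the labels give, with 3 mice in each genotype. Ts1Cje is a mouse model of Down syndrome in which a segment of mouse chromosome 16 (MMU16), from Sod1 to Zbtb21, is attached to the end of chromosome 12 (MMU12). These mice therefore carried an additional copy of the genes after Sod1 and up to Zbtb21, together with a neomycin cassette in the Sod1 locus that leaves the extra Sod1 copy without function, and they lacked 1 copy of a short MMU12 segment with the genes Dnah11, Sp4, Sp8, Abcb5, Itgb8, Macc1 and Tmem196. Ts1Cje males had been crossed with C57BL/6 females, the disomic littermates are labelled C57BL/6, and none of the mice received a treatment. All were labelled female. The Ts1Cje mice thus differed from their littermates in both segments at once, and effects of the extra MMU16 copy and of the lost MMU12 copy cannot be told apart here outside those segments. The labels call the 3 arrays of a genotype biological replicates, and 1 array was hybridised for each mouse and region.

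At birth the mouse neocortex holds migrating and newly settled projection neurons of deep and upper layers, interneurons that arrive from the ventral forebrain, radial glia that turn to making glia, and Cajal-Retzius cells at its surface. It borders the hippocampus, the striatum and the meninges, so RNA of a cortical dissection can hold some from each of them. A gene present in 3 copies rather than 2 would be read at 1.5-fold, or 0.58 on the log2 scale, if its RNA followed the number of copies. All values are log2 gcRMA levels, a background-corrected and normalised probe set brightness, and all differences are Ts1Cje minus disomic. A level compares 1 probe set between arrays and not 1 gene with another.

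The 6 arrays were of like brightness, with medians between 3.21 and 3.26 and upper quartiles between 5.76 and 5.90, and no pair correlated below 0.977. They did not group by genotype. Ts1Cje 1 was most like disomic 1, Ts1Cje 2 was most like disomic 2, and Ts1Cje 3 was most like disomic 3. Against the female label, Eif2s3y, a Y-linked gene, lay between 9.02 and 9.68 on 5 of the 6 arrays, and Xist, the RNA of the inactive X chromosome, was at 2.40 or lower on them. On Ts1Cje 3 this was turned round, with Xist at 8.12 and Eif2s3y at 2.90, which held for 3 of the 72 arrays. Results are therefore also given without Ts1Cje 3. The tissue label was borne out by the markers. The mean over 13 upper-layer projection neuron genes was 8.02 to 8.41 on these arrays, 6.86 to 7.58 in the P1 hippocampus and 5.42 to 6.12 in the P1 cerebellum, and the mean over 13 genes of cerebellum and hindbrain was 3.08 to 3.26 here and 5.75 to 6.19 in the P1 cerebellum.

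In the P1 cortex 5 genes differed between Ts1Cje and disomic mice, and 4 of them lie in the rearranged chromosome segments. Dnah11, Mrps6 and Nts rose in Ts1Cje, and Sp8 and Itgb8 fell. The test was limma's, and a call needed a moderated t of 4 or more in size together with a Benjamini-Hochberg adjusted p of 0.05 or less, over 45101 probe sets. For this comparison the paper's own summary, at the same thresholds, counts more genes in each direction. Pooling the spread over all 72 arrays was a choice of the fit used here, and the cause of the gap was not tested. The 5 called probe sets make up 0.0111% of all, 3 higher in Ts1Cje (0.00665%) and 2 lower (0.00443%), whereas 1324 probe sets had an unadjusted p under 0.05, 665 of them higher and 659 lower. Nts is the one called gene outside both segments. Without Ts1Cje 3, 4 probe sets were called, and Mrps6 and Nts were no longer among them. The count was 72 without Ts1Cje 1, 23 without Ts1Cje 2, 3 without disomic 1, 14 without disomic 2 and 5 without disomic 3. With replicate number as a block 12 were called (0.0266%), 6 in each direction, and Dnah11, Mrps6 and Nts were among them. The block added Vps26c, Smim11 and Tshz2 among the higher probe sets and Pltp, Ptprk and 4 unnamed ones among the lower.

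**Figure D1:**
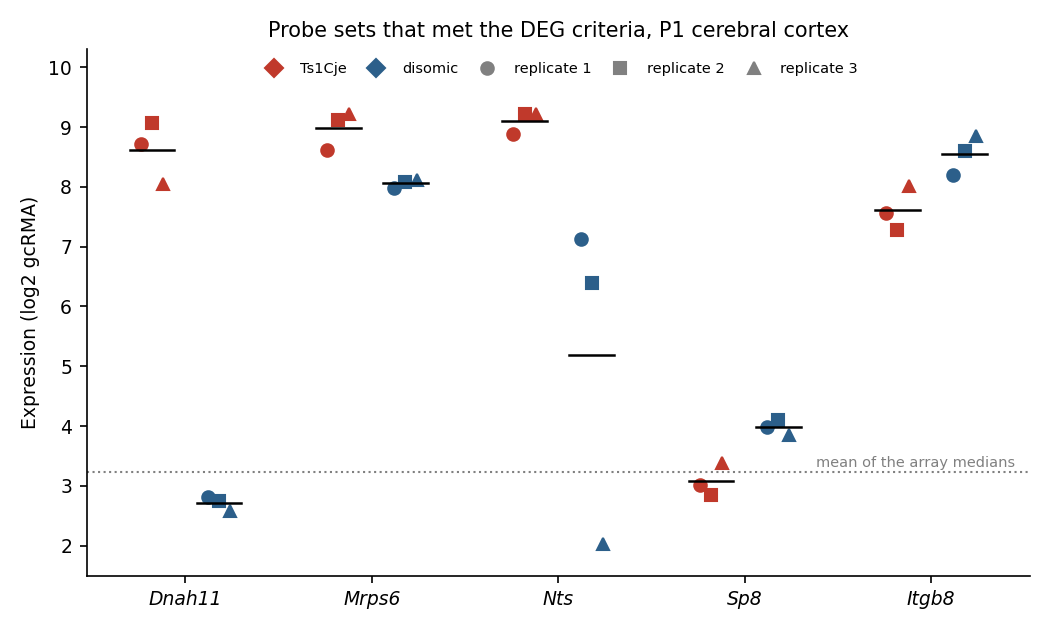
Log2 gcRMA level (y axis) of the 5 called probe sets on each of the 6 P1 cortex arrays. Each point is 1 mouse, coloured by genotype and shaped by replicate, with a bar at the group mean. Dnah11 shows the widest gap, and the 3 Nts points of the disomic mice spread from 7.13 down to 2.04.

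Dnah11 encodes a heavy chain of the dynein motor of motile cilia and lies at the edge of the segment lost from MMU12. Its level was 8.72, 9.06 and 8.05 in the 3 Ts1Cje mice and 2.82, 2.75 and 2.57 in the disomic mice. All 3 disomic values lay below their array's median, and none came near a Ts1Cje value. The difference was 5.90 (SE 0.23, adjusted p = 6.93e-26, limma), and because the disomic side is at the low end of the array its fold size depends on the background correction. The direction was opposite to that of a gene with 1 copy instead of 2. Dnah11 was as high in Ts1Cje in the other 11 combinations of age and region, where the difference ran from 5.26 to 6.49. The 250 bases before its start, shown because no other gene moved this far, are on the minus strand at chr12:118199044-118199293 (RefSeq, GRCm38.p6), in lower case because none of the 5 motifs searched matched.
Dnah11: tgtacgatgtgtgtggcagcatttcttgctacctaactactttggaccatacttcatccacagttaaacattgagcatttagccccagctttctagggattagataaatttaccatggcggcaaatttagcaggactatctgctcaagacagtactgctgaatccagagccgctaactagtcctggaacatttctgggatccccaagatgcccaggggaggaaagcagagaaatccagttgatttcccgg

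Itgb8 and Sp8, which also lie in the lost segment, were lower. Itgb8 is an integrin subunit that takes part in the activation of latent TGF-beta and is needed for brain vessels to form. It was at 7.56, 7.28 and 8.01 in Ts1Cje and at 8.20, 8.61 and 8.84 in disomic mice, so the groups did not overlap, though the highest Ts1Cje value and the lowest disomic value were close. It fell by 0.93 (SE 0.18, adjusted p = 0.0237, limma). Sp8 is a zinc finger transcription factor that patterns the telencephalon and marks some interneurons. Its values of 3.02, 2.85 and 3.39 in Ts1Cje and 3.98, 4.11 and 3.85 in disomic mice also stood apart, but close to the array medians, where a change is read less well. Sp8 fell by 0.89 (SE 0.16, adjusted p = 0.0132, limma). With replicate number as a block both missed the threshold (adjusted p = 0.0813 for Itgb8 and 0.0669 for Sp8). Without Ts1Cje 2 the adjusted p was 0.177 for Itgb8 and 0.0928 for Sp8, without disomic 2 it was 0.0696 and 0.0674, without disomic 3 it was 0.210 for Itgb8, and without disomic 1 it was 0.101 for Sp8.

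The remaining genes of the lost segment were not called. Sp4, another zinc finger transcription factor, was at 6.54, 6.48 and 6.95 in Ts1Cje and 6.95, 7.42 and 7.88 in disomic mice. The groups met at 6.95, and the difference of -0.76 had an adjusted p of 1.00 in limma, with -0.31 for its other probe set. Macc1 and Tmem196 differed by -0.09 and -0.29 at low levels, and no probe set was assigned to Abcb5. The 8 measured genes next to Dnah11 on its other side, from Esyt2 to Cdca7l, differed by between -0.21 and 0.18, and none was called. The difference of Itgb8 was negative in all 12 combinations of age and region, between -0.58 and -1.41. Sp8 was at 2.94, 3.02 and 2.42 in the Ts1Cje and 3.08, 3.29 and 3.05 in the disomic P1 hippocampus, and no value exceeded 2.63 in the cerebellum or at later ages.

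Mrps6, a protein of the small subunit of the mitochondrial ribosome, was the one triplicated gene with a called probe set. Its levels were 8.62, 9.12 and 9.21 in Ts1Cje and 7.98, 8.08 and 8.11 in disomic mice. The disomic mice were close together and all lay below the lowest Ts1Cje mouse. It rose by 0.93 (SE 0.16, adjusted p = 0.00932, limma), which is 1.90-fold. Its other probe set differed by 0.91, from 9.12, 9.42 and 9.94 against 8.24, 8.78 and 8.73, at an adjusted p of 0.324. Without Ts1Cje 3 the called probe set was at 0.81 (adjusted p = 0.130), and without disomic 1 at 0.89 (adjusted p = 0.101). The paper's own analysis marks more triplicated genes in the P1 cortex, among them Chaf1b, Tmem50b, Pigp, Psmg1 and Rcan1. In this fit Chaf1b, with a mean over all arrays below 5, differed by 0.79 without overlap (adjusted p = 0.359, limma). The promoter window of Mrps6, on the plus strand at chr16:92058086-92058335 (RefSeq, GRCm38.p6), is shown with its 4 GC boxes (GGGCGG) in capitals, of which the outer 2, at bases 114 to 109 and 109 to 104 before the start, share 1 base.
Mrps6: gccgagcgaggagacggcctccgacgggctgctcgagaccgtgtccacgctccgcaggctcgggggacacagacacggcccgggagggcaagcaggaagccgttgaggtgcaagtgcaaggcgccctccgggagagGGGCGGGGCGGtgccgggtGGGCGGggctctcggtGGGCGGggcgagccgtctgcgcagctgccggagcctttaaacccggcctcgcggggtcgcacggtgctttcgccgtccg

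Nts encodes the precursor of neurotensin, a peptide that modulates dopamine signalling, body temperature and feeding. It was at 8.88, 9.22 and 9.21 in Ts1Cje and at 7.13, 6.39 and 2.04 in disomic mice. The Ts1Cje mice were alike, whereas the disomic mice spread over more than 5 log2 units and disomic 3 was below its array's median. The difference was 3.92 (SE 0.70, adjusted p = 0.0115, limma). That SE rests on a spread pooled over all groups, whereas the standard deviation was 2.75 in the disomic and 0.19 in the Ts1Cje mice. The p therefore does not measure the spread of these mice alone. With only the cortex arrays fitted, the adjusted p was 0.138 in limma. With only the P1 cortex arrays fitted, Nts was not called either. The difference was 2.34 with an adjusted p of 0.267 without disomic 3, and 3.87 with an adjusted p of 0.0879 without Ts1Cje 3. The promoter window of Nts, on the minus strand at chr10:102490419-102490668 (RefSeq, GRCm38.p6), is shown with its AP-1 match (TGAGTCA) in capitals at bases 207 to 201 before the start.
Nts: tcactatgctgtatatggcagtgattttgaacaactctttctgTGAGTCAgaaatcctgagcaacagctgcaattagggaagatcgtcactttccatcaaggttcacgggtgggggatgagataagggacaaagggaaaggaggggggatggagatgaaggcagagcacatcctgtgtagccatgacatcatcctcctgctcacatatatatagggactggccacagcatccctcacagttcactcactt

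With 1 probe set a gene and a mean of 5 or more on the 6 arrays, Tshz2, a zinc finger homeobox transcription factor, came next to Nts in moderated t among the genes outside both segments. Its levels of 7.75, 7.44 and 6.996 in Ts1Cje and 5.56, 5.45 and 4.09 in disomic mice did not overlap, and disomic 3 was again the lowest. The difference was 2.36 (SE 0.51) with an adjusted p of 0.0967 in limma, and with replicate number as a block it passed (adjusted p = 0.0111). Its other 2 probe sets, both dimmer, differed by 0.92 and 0.76 and did not overlap either (adjusted p = 0.962 and 1.00).

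**Figure D2:**
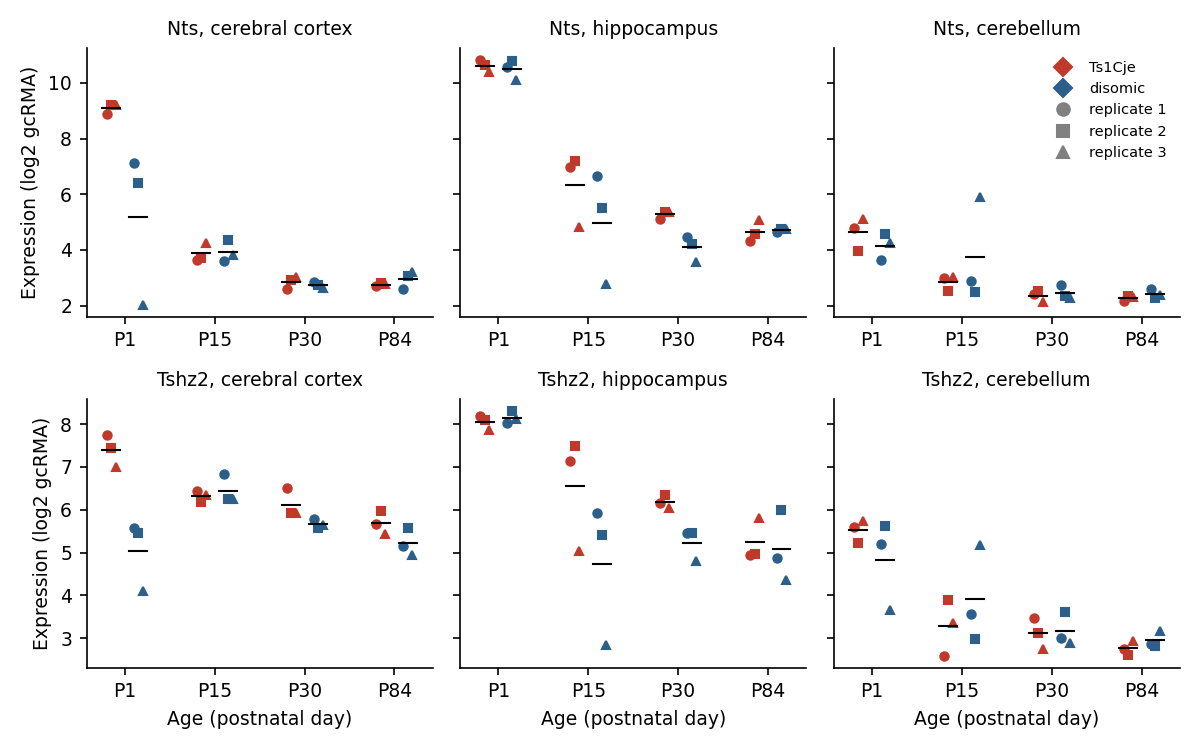
Log2 gcRMA level (y axis) of Nts and Tshz2 for each mouse by age (x axis), region (columns) and genotype, with a bar at the group mean. At P1 both were higher in the hippocampus than in the cortex, and the 2 genotypes lay apart in the cortex and together in the hippocampus.

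Both genes were high in the neighbouring region. In the P1 hippocampus Nts was at 10.82, 10.64 and 10.40 in Ts1Cje and 10.59, 10.77 and 10.12 in disomic mice, and Tshz2 was at 8.19, 8.09 and 7.86 against 8.02, 8.31 and 8.12. Every one of these values exceeded all 6 cortical values of the same gene. In the cortex at P15, P30 and P84 the group means of Nts lay between 2.73 and 3.93, whereas those of Tshz2 lay between 5.23 and 6.45, above the disomic P1 mean of 5.04. In the P30 hippocampus Nts was at 5.09, 5.37 and 5.38 in Ts1Cje and 4.48, 4.23 and 3.57 in disomic mice, and Tshz2 at 6.15, 6.34 and 6.05 against 5.45, 5.45 and 4.81. Both were without overlap there too, though neither was called. In the P15 and P84 hippocampus both genes overlapped between genotypes, and at P15 replicate 3 was the lowest of each genotype for both. In the P30 cortex Tshz2 was at 6.50, 5.93 and 5.92 in Ts1Cje and 5.77, 5.59 and 5.64 in disomic mice, without overlap, whereas Nts overlapped. Beside the P1 cortex differences, the mean over 9 hippocampal marker genes was 3.83, 3.75 and 3.70 on the Ts1Cje cortex arrays. It was 3.63, 3.54 and 3.55 on the disomic ones, without overlap, and 4.66 to 5.18 in the P1 hippocampus itself. Only 1 of the 9 had a mean of 5 or more on the 6 cortex arrays, so the size of this separation is read less well. The mean over 14 striatal markers was 4.10, 4.17 and 4.02 against 4.26, 4.57 and 4.39, again without overlap. The part of either shift in the Nts and Tshz2 values was not tested, and in bulk RNA fewer cells of a type and less RNA per cell cannot be told apart.

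Of the 77 triplicated genes measured, 38 had a mean over all arrays of 5 or more, and all 38 were higher in Ts1Cje, from 0.24 for Prdm15 to 1.42 for Ifngr2. Without Ts1Cje 2, 37 were higher and Il10rb was at -0.08. Their median difference was 0.66, or 1.58-fold, against 0.04 over 7715 other genes at such levels. Of the 38, 25 exceeded 0.58, where 1.52% of all genes at such levels did, and the 3 Ts1Cje mice lay wholly above the disomic mice for 28, where 3.27% of all genes did. The mean over the 38 genes was 8.33, 8.39 and 8.32 in the Ts1Cje mice and 7.54, 7.76 and 7.66 in the disomic mice, so that all 3 Ts1Cje mice exceeded all disomic mice by a like amount. The median SE of a single gene was 0.25. The 95% interval held 0.58 for all 38 genes and excluded 0 for 29, so these mice do not separate a gene with no rise above its copy number from one with a larger rise.

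**Figure D3:**
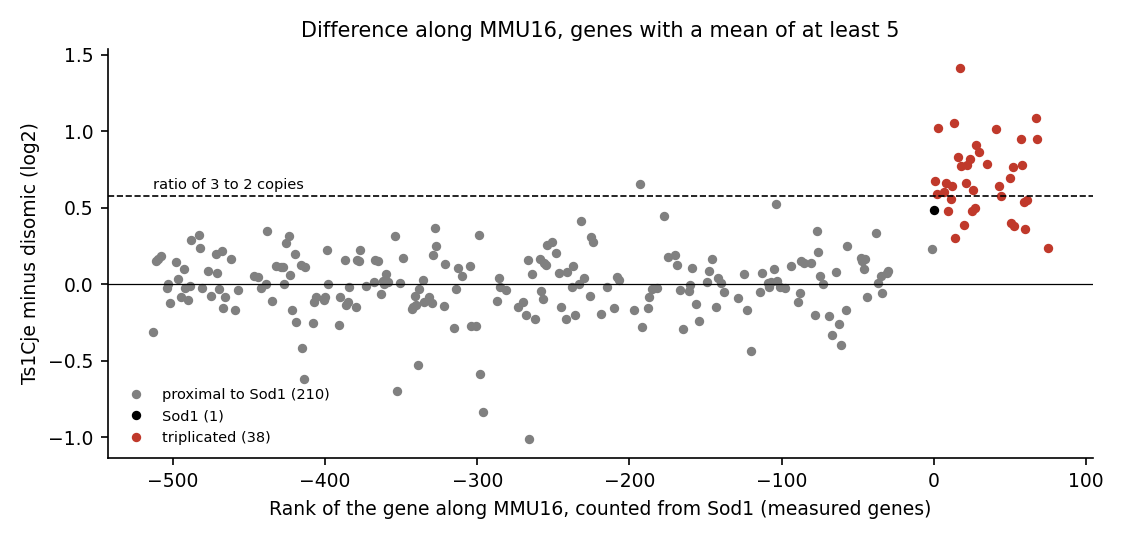
Difference in log2 level, Ts1Cje minus disomic (y axis), of genes with a mean of 5 or more by rank along MMU16 counted from Sod1 (x axis), with the triplicated genes in red and a dashed line at 0.58. The triplicated genes lie above 0 throughout, and the genes before Sod1 scatter about 0.

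The genes before the segment showed no such shift. Over the 210 genes that precede Sod1 on MMU16 with a mean of 5 or more, the median difference was 0.00 and 1 gene exceeded 0.58. Sod1 itself, an antioxidant enzyme whose extra copy is interrupted, has 5 probe sets. Its brightest read 10.91, 11.53 and 11.55 in Ts1Cje and 10.50, 11.10 and 10.93 in disomic mice, which overlapped, and the others differed by 0.05, 1.21, 0.27 and 0.62 without a call. The probe sets at 1.21 and 0.62 did not overlap between genotypes, and those at 0.05 and 0.27 did. The difference was smaller at a mean under 5, where a change is read less well, and showed no steady trend with level above that. Of the 77 triplicated genes, the 28 with a mean under 3.5 had a median of 0.05, the 11 between 3.5 and 5 had 0.27, the 13 between 5 and 7 had 0.78, the 16 between 7 and 9 had 0.62 and the 9 above 9 had 0.66. Where a gene had several probe sets at a mean of 5 or more, they pointed the same way in all 18 cases and differed by more than 0.5 in 3.

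**Figure D4:**
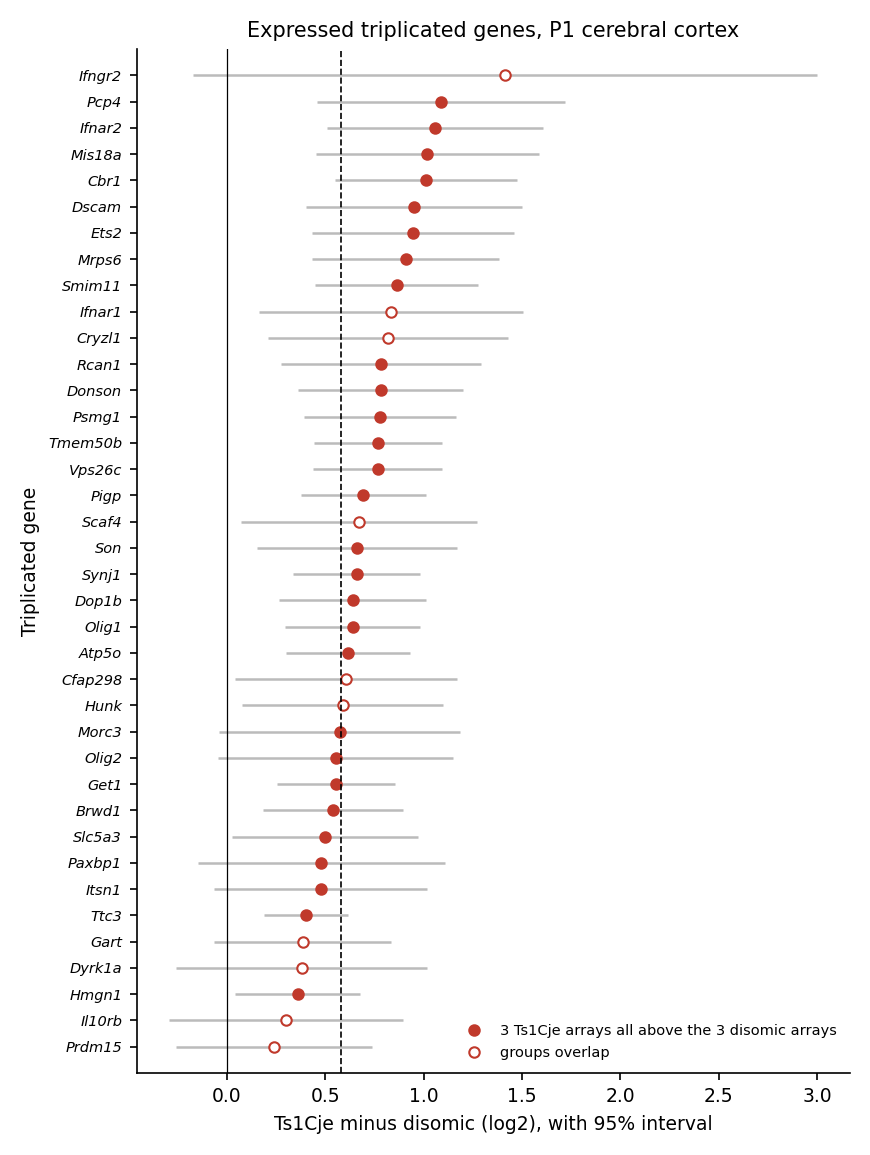
Difference in log2 level with its 95% limma interval (x axis) for each of the 38 triplicated genes with a mean of 5 or more (y axis), with lines at 0 and 0.58 and filled points where the genotypes do not overlap. All 38 intervals hold 0.58, and 29 lie above 0.

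By role, cytokine receptors held both the highest and some of the least certain values. Ifngr2, a chain of the interferon gamma receptor, read 7.27, 7.33 and 5.99 against 6.57, 5.18 and 4.60, so that the genotypes overlapped and the difference of 1.42 had an SE of 0.79. For another probe set of Ifngr2 the paper lists a smaller difference in the P1 cortex, so its place as highest depends on the probe set. Ifnar2, a chain of the type I interferon receptor, was at 5.89, 6.74 and 6.49 against 5.53, 5.47 and 4.95, a difference of 1.06 without overlap (adjusted p = 0.311, limma). Ifnar1 and Il10rb differed by 0.83 and 0.30 with overlap. The other 9 measured genes of interferon receptors and Jak-Stat signalling had a median of -0.01, and 25 interferon-stimulated genes had a median of -0.04 with 11 higher and none called. Only 5 of these 25 had a mean of 5 or more on the 6 arrays, so most lay at low levels, where a change is read less well.

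Genes of metabolism and mitochondria exceeded 0.58 in 5 of 7 cases, with a median of 0.69. Over all 38 triplicated genes with a mean of 5 or more, 25 did, with a median of 0.66. Cbr1, a carbonyl reductase, was at 8.24, 8.57 and 8.43 against 7.34, 7.52 and 7.34, and both genotypes were tight about a difference of 1.01 (SE 0.23, adjusted p = 0.140, limma). Its paralog Cbr3 was at 3.75, 4.21 and 4.15 against 2.47, 2.93 and 2.26, a difference of 1.48 without overlap, at a mean below 5. Atp5o, a subunit of the mitochondrial ATP synthase, differed by 0.62, and Gart, an enzyme of purine synthesis, by 0.39 with overlap. Their other probe sets with a mean of 5 or more differed by 0.46 and 0.69. The 35 nuclear-encoded genes of the respiratory chain had a median of 0.09, with 27 higher and none called.

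All 5 genes of endocytosis and membrane traffic lay wholly above the disomic mice, with a median of 0.64. The same held for 28 of all 38 triplicated genes with a mean of 5 or more, whose median was 0.66. Vps26c, a subunit of an endosomal sorting complex, read 8.25, 8.38 and 8.51 against 7.49, 7.81 and 7.55, a difference of 0.77 (SE 0.16, adjusted p = 0.0814, limma) that passed with replicate number as a block (adjusted p = 0.0472). Synj1, a phosphatase that strips the coat from synaptic vesicles, was at 10.39, 10.59 and 10.27 against 9.42, 9.99 and 9.87 and differed by 0.66. Itsn1, an endocytic scaffold, had the smallest difference of the 5, 0.48, and its lowest Ts1Cje value and highest disomic value were nearly equal. Its 6 probe sets with a mean of 5 or more ran from 0.44 to 0.86, so its place depends on the probe set.

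Of all 38 triplicated genes with a mean of 5 or more, 28 did not overlap between genotypes and 25 exceeded 0.58. Among the 9 that act in transcription and chromatin, 8 did not overlap and 3 exceeded 0.58. Mis18a, which takes part in centromere assembly, had the largest difference of them, 1.02, and Ets2, a transcription factor, was at 8.68, 8.67 and 8.28 against 7.83, 7.48 and 7.47, a difference of 0.95. Olig1 and Olig2, transcription factors of the oligodendrocyte lineage, differed by 0.64 and 0.56, while 14 genes of that lineage had a median of 0.15 with none called. Hmgn1, a nucleosome-binding protein, was the brightest of the 9 and differed by 0.36 from 12.54, 12.63 and 12.57 against 12.18, 12.27 and 12.19. Its genotypes were apart by more than the spread within either, though the difference was below 0.58.

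Among signalling genes, Rcan1, an inhibitor of calcineurin, was at 8.23, 8.32 and 8.56 against 7.39, 7.60 and 7.77, a difference of 0.78. Dyrk1a, a kinase, differed by 0.38 and overlapped, with Ts1Cje 3 at 8.87, below disomic 1 at 9.50. The other 10 measured genes of calcineurin and NFAT signalling had a median of 0.04. Pcp4, a calmodulin-binding protein of neurons, was at 8.95, 9.40 and 9.64 against 7.46, 8.89 and 8.38, and Dscam, an adhesion molecule of developing neurites, at 5.96, 6.22 and 6.25 against 4.87, 5.53 and 5.19. These 2 differed by 1.09 and 0.95 without overlap, but the other Dscam probe set with a mean of 5 or more differed by 0.19 and overlapped. Psmg1, a proteasome assembly factor, Donson, a DNA replication factor, and Son, a splicing protein, differed by 0.78, 0.78 and 0.66, and Ttc3, a ubiquitin ligase, by 0.40. Probe sets with a mean of 5 or more ran from 0.48 to 0.99 for Son and from 0.40 to 0.61 for Ttc3. Smim11 and Tmem50b differed by 0.86 and 0.77, and Smim11 passed with replicate number as a block (adjusted p = 0.0111).

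The 5 motifs were searched on both strands of the 250 bases before each gene's start, for 36 of the 38 genes with a RefSeq window. A GC box (GGGCGG) was in 25 of the 36 genes, or 69.4%, and in 67.9% of 6273 other genes of such levels, so the share of the triplicated genes was that of other expressed genes, and 32.7% of all 32851 windows held one. The CCAAT box was in 33.3% and 40.4% of the 2 sets of genes and in 33.8% of all windows. The AP-1 motif TGANTCA, the cyclic AMP response element TGACGTCA and the TATA box TATAAA were each in 1 of the 36 genes (2.78%). They were in 5.04%, 3.41% and 7.57% of the other genes and in 6.75%, 1.55% and 12.4% of all windows.

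No gene outside both segments other than Nts was called, and the genes at the ends of the ranking fall into different kinds. On the higher side, Tsga10 was at 5.61, 5.81 and 6.23 against 4.78, 5.05 and 5.02 (difference 0.94, adjusted p = 0.140, limma). Tuba4a, an alpha tubulin, was at 8.30, 8.84 and 8.77 against 7.84, 8.14 and 7.21 (difference 0.91, adjusted p = 0.188), and Hepacam, an adhesion molecule of glia, at 5.87, 5.02 and 5.33 against 4.78, 4.82 and 4.76 (difference 0.62, adjusted p = 0.413). None of the 3 overlapped between genotypes, but they were picked for a high moderated t on these same arrays, which favours that. Of all genes, 4.13% lay above in this way. Mt1, a metal-binding protein, read 7.90, 8.31 and 9.44 against 7.79, 7.57 and 7.71, and its difference of 0.86 came mostly from Ts1Cje 3. Arg2, Lipt2, Mcrip2, Fbxo44, Svbp and St3gal3 completed the 12 of highest moderated t, with differences between 0.51 and 1.14.

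On the lower side, several of the 12 genes varied widely within a genotype. Pltp, a phospholipid transfer protein, was at 8.15, 8.80 and 6.62 against 9.59, 9.07 and 8.17, a difference of -1.09 (adjusted p = 0.148, limma) that passed with replicate number as a block (adjusted p = 0.00187). Gja1, the gap junction protein connexin, was at 7.55, 10.56 and 8.32 against 10.37, 10.41 and 9.20, and Col3a1, a fibrillar collagen, at 3.12, 8.18 and 3.05 against 9.04, 7.87 and 4.72. Ptgds, a prostaglandin D synthase, spanned 3.34, 11.29 and 7.48 against 11.23, 11.07 and 7.53. In these last 3 Ts1Cje 2 read like disomic 1 and 2, and the genotypes overlapped.

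The means of the meningeal markers are given beside them. The mean over 13 meningeal genes was 3.35, 6.45 and 3.98 in Ts1Cje and 6.44, 6.17 and 4.21 in disomic mice, 11 of the 13 were lower, and their median difference was -1.08 with none called and none without overlap. The list holds Ptgds and Col3a1, and without them the mean was 3.37, 5.85 and 3.75 against 5.77, 5.57 and 3.86, with 9 of 11 lower. Gja1 is on the astrocyte list, whose median was 0.16. The lowest Ts1Cje value of Pltp was on Ts1Cje 3, and that of the meningeal mean was on Ts1Cje 1. Without Ts1Cje 2, 23 probe sets were called, among them Gja1, Ptgds, Col3a1 and Pltp, all lower. Ts1Cje 2 held the highest Ts1Cje value of each of these genes, so leaving it out favours such calls. They are no separate evidence of a fall. The part of the meningeal markers in those values was not tested. Fbn2 and Gsn, which encode a fibrillin and an actin-severing protein, stood apart between genotypes, with differences of -0.87 and -1.15. Rhobtb1, Prkdc and Sorcs1 also did not overlap, with differences of -0.73, -0.62 and -0.88, whereas Nid1, Gas1 and Slc13a3 did. All were picked for a low moderated t on these arrays, which favours a lack of overlap, and 2.22% of all genes lay below.

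**Figure D5:**
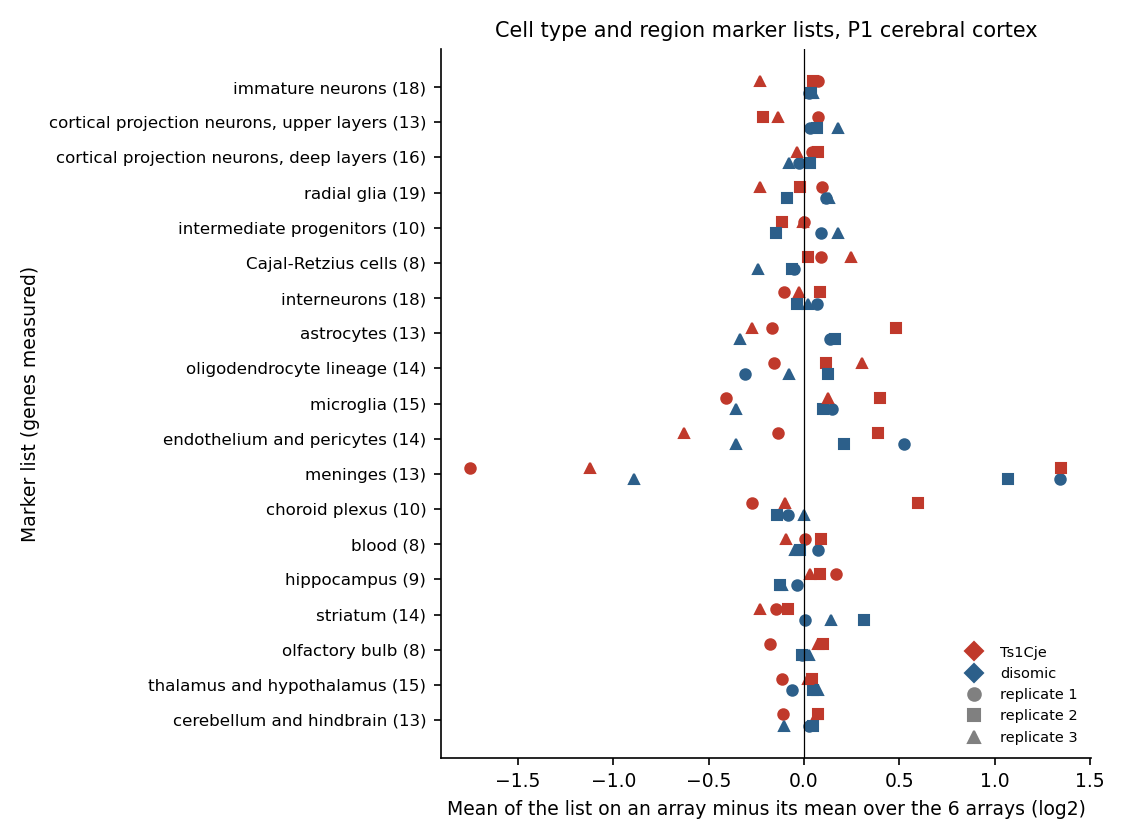
For each marker list (y axis, with the number of genes), the mean log2 level on each of the 6 P1 cortex arrays minus the list's mean over the 6 (x axis), coloured by genotype and shaped by replicate. The meningeal mean itself spans 3.35 to 6.45, the hippocampal and Cajal-Retzius means are higher and the striatal mean lower on all 3 Ts1Cje arrays, and the other lists overlap.

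By 1 probe set a gene, 0.022% of the 18194 genes were called. Of 31 gene lists, none had a called member other than the list of the lost segment and the neuropeptides, where Nts was the 1 called. The counts without overlap below stand beside 4.13% of all genes above and 2.22% below, and the members named for it were chosen after their values were seen. The 18 genes of immature neurons, such as Dcx and Tubb3, were bright and level, with a median of -0.05. The 13 upper-layer genes had a median of -0.08, with Rorb, a layer 4 transcription factor, at 7.59, 6.78 and 7.12 against 7.81, 7.92 and 7.61. The 16 deep-layer genes had a median of 0.07 with 3 above and 2 below. Crym, Zfpm2 and Fezf2 differed by 0.77, 0.59 and 0.35, and Foxp2 and Sox5, both transcription factors of deep-layer neurons, by -0.61 and -0.52.

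The Cajal-Retzius list was higher on each Ts1Cje array, at 4.54, 4.48 and 4.70 against 4.40, 4.39 and 4.21, while the median over its 8 genes was 0.12. The largest difference in it was that of Calb2, the calcium-binding protein calretinin, at 5.25, 5.72 and 5.65 against 4.89, 4.84 and 4.08. Reln, the glycoprotein that these cells secrete, differed by 0.08. All 14 striatal genes were lower, with a median of -0.24, and Ebf1 and Ikzf1 did not overlap. The hippocampal list had a median of 0.20, with Fibcd1 at 3.88, 3.97 and 3.80 against 3.28, 3.30 and 3.20. Radial glia (19 genes, median -0.09), intermediate progenitors (10, -0.07), interneurons (18, -0.05), astrocytes (13, 0.16) and microglia (15, -0.01) showed no called gene. Of the radial glia genes, 12 were lower and 7 higher. Hes5, a Notch target, and Hopx lay above in all 3 Ts1Cje mice, none lay below in all, and the lowest difference was that of Tnc, an extracellular matrix protein, at -0.88 with overlap. The 37 cell cycle genes had a median of -0.10, with 25 lower and none called. Endothelium and pericytes had a median of -0.24 over 14 genes, and Pdgfrb, a pericyte receptor, lay below in all Ts1Cje mice with a difference of -0.62.

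Among 17 neuropeptides and neurotensin receptors, Cck, Crh and Trh joined Nts in lying above in all Ts1Cje mice. Cck, the precursor of cholecystokinin, was at 9.58, 9.38 and 9.30 against 8.91, 9.13 and 8.40, a difference of 0.61 with an adjusted p of 1.00 in limma. Crh and Trh, precursors of hypothalamic releasing hormones, differed by 0.51 and 0.33 at low levels. Of the 17, 9 were higher, and their median was 0.03. Tac1, the precursor of substance P, was at 4.005, 5.11 and 4.70 against 4.91, 6.29 and 5.39, a difference of -0.92 with overlap.

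Whether the cortical differences at P1 were of another size than at later ages or in other regions was asked within the same fit. Against the mean of the later cortical differences, 0 probe sets were called by limma, with 1417 at an unadjusted p under 0.05. Nts had the lowest adjusted p, 0.398, for a difference of differences of 3.97 (SE 0.80). Without 5 arrays of other groups that were dim or stood apart, Nts was the 1 probe set called (3.93, adjusted p = 0.0199), and with replicate number as a block Nts, Pltp and an unnamed probe set were. The count was 14 without Ts1Cje 1, 13 without Ts1Cje 2 and at most 1 without any other P1 cortex array. Sp8 differed by -0.82 (SE 0.19, adjusted p = 0.529) and Itgb8 by -0.01. Against the P1 hippocampus, 0 were called, with 1065 at an unadjusted p under 0.05, and Nts stood at 3.79 (SE 0.98) and Tshz2 at 2.46 (SE 0.73), both at an adjusted p of 1.00. That count was 3 without Ts1Cje 1 and 7 without Ts1Cje 2. The comparisons share the P1 cortex mice. Per the methods, the 3 regions were taken from the same mice, which this fit treats as independent groups.

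Against the P1 cerebellum, 4 probe sets were called, 0.00887% of all, with 3454 at an unadjusted p under 0.05. They were Fgf3, Slc6a2, A830029E22Rik and Hmgb2, and in each the cerebellar difference was over 1 and the cortical one between -0.39 and 0.05. The count was 8 without Ts1Cje 2 and 9 without disomic 1. It was 7, the 4 included, when regions of equal genotype, age and replicate number were taken as 1 mouse and mouse was a random block, and 0 stayed 0 against the hippocampus. Among the 38 triplicated genes the median difference was 0.66 in the P1 cortex, 0.64 in the P1 hippocampus and 0.88 in the P1 cerebellum. In the cortex it was 0.60 at P15, 0.64 at P30 and 0.81 at P84.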

How the data were processed

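Total RNA of single brain regions was hybridised to Affymetrix whole-genome mouse arrays after amplification in 2 cycles. The authors corrected and normalised the arrays with gcRMA (version not given in the sources used), and the deposited values are log2 levels of 45101 probe sets on 72 arrays. No unused sample columns remained (0).

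The values entered a linear model in limma 3.58.1 (R 4.3.3), with 24 group means (48 residual degrees of freedom) and the criteria of the study's methods, a moderated t of 4 or more in size and a Benjamini-Hochberg adjusted p of 0.05 or less. An array gives no counts, so the number of mice, 3 per genotype, limits the precision. An exact permutation test of 3 against 3 mice cannot go below a two-sided p of 0.1, so none was used. GEO's platform annotation gave 34958 probe sets 1 gene symbol, 932 several and 9211 none, and 34754 were updated by gene ID to the RefSeq table of GRCm38.p6. Unnamed probe sets are counted but not named. Per gene, the probe set of highest mean over all arrays was used, for 18194 genes.

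Named were every called probe set, every gene of the lost MMU12 segment, triplicated genes with a mean of 5 or more (those of the highest and the lowest difference in a group of like function, and others as examples), the 12 genes of highest and the 12 of lowest moderated t outside both segments with a mean of 5 or more on the 6 arrays, and members of the gene lists. The members, the gene lists and the tests were chosen with earlier results of these data known.

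Replicate numbers pair samples by the rule that every pair's deviations from the group means correlate above 0.1. Over 13779 probe sets, those of equal number correlated between 0.39 and 0.54, and all others between -0.53 and 0.08. The labels give no shared litter or day for a number. The fit with replicate number within each age and region as a block is given where it changes a call. Other alternatives were a trended and robust prior, quantile normalisation, a minimum mean of 5 or 7, array quality weights, fits of fewer arrays, adjustment over 12 comparisons, and leaving out arrays. The limma code was tested on simulated data.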

Additional observations from a re-analysis of the deposited data

Results flagged for a closer look

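For 4 probe sets the difference between Ts1Cje and disomic mice in the P1 cerebral cortex was not the same as in the P1 cerebellum, by limma's test of the difference itself over all probe sets. Fgf3, a fibroblast growth factor, differed by -0.39 in the cortex and by 1.15 in the cerebellum, a difference of -1.54 (SE 0.24, adjusted p = 0.00124). Slc6a2, the noradrenaline transporter, differed by -0.16 and 1.40, a difference of -1.57 (SE 0.27, adjusted p = 0.00684). A830029E22Rik, for which no role is named here, differed by 0.01 and 1.60, a difference of -1.58 (SE 0.27, adjusted p = 0.00542). Hmgb2, a chromatin protein of dividing cells, differed by 0.05 and 1.16, a difference of -1.11 (SE 0.21, adjusted p = 0.0281). With replicate number as a block Hmgb2 missed the threshold (adjusted p = 0.0831) and the other 3 did not. In all 4 the cerebellar difference was the larger in size, and none met the criteria in the P1 cortex. Without the 5 dim or displaced arrays, of which 1 is a disomic P1 cerebellum array, Fgf3 and Slc6a2 were called again and the other 2 were not.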

How the results depend on the processing

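None of the 5 called probe sets and no median reversed. Dnah11 was called in all 17 alternatives, Mrps6 in 12 of 17, Itgb8 in 11 of 17, Nts in 11 of 16 and Sp8 in 10 of 16, the last 2 having too low a mean for the minimum of 5. The 5 called probe sets became 12 with the replicate block and 12 with adjustment over all comparisons, 9 with quantile normalisation and 9 with array weights, 3 with a minimum mean of 5, 26 without the 5 dim or displaced arrays of other groups, and 1 when only the P1 cortex arrays were fitted. With 1 P1 cortex array left out the count ran from 3 to 72. Leaving out the array with Xist above Eif2s3y is the same as leaving out Ts1Cje 3, so that alternative is counted 2 times. Another alternative, adjusted p alone, loosens the criteria and could not lose a call. In the cortex arrays alone Dnah11, Cbr3, Tshz2 and Cbr1 were called.

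For the age contrast, 0 probe sets became 3 with the replicate block, 1 without those 5 arrays and 0 to 14 with 1 array left out. For the hippocampus contrast, 0 became 1 with the block and 0 to 7 with 1 array left out. For the cerebellum contrast, 4 became 8 with quantile normalisation, 0 with a minimum mean of 5, 59 with array weights and 3 to 9 with 1 array left out. With the block it stayed at 4, of which 3 were shared and Hmgb2 was lost. With mouse across regions as a random block it became 7. That alternative, and the one without the 5 arrays for these 3 contrasts, were added after seeing the data.

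Of the triplicated genes, 16 of 25 exceeded 1.5-fold at a minimum mean of 7, 30 of 77 with no minimum, 18 of 38 by the median over all probe sets of a gene, and 20 to 26 of 38 with 1 array left out. Without Ts1Cje 2, Il10rb turned to -0.08, so that 37 of the 38 were higher. The median was 0.57 over all probe sets of a gene, 0.40 with no minimum, and 0.59 to 0.76 with 1 array left out. Pairing by replicate number leaves these counts as they are by arithmetic, since each number holds 1 mouse of each genotype. Where a count changed, the cause was not tested. No detection calls were used here, so values near the array medians, such as those of Sp8, are the least certain.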
